A study of Mus musculus with 11 samples.

Results

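Blm, Wrn, Brip1, Dhx36, Pif1, Rtel1, Dhx9, Ddx5, Ercc2 and Atrx were taken as a set of helicases linked to G-quadruplexes and were followed through RNA-seq of mouse embryonic stem cells in which CTCF can be degraded. They were found by symbol in the deposited tables, 10 of 55228 symbols, and all 10 were among the 16420 genes tested. The cells were of the line EN52.9.1, in which CTCF, a zinc finger protein that organises chromosome loops and that the series treats as a G-quadruplex binder, carries an auxin-inducible degron in every group. Cells labelled EV without auxin (EV untreated, 3 libraries) carry the genotype label untreated (wild-type), although the line is the degron line. EV cells with 500 µM of the auxin indole-3-acetic acid (EV auxin, 2 libraries), cells given back FL CTCF under the same auxin (FL auxin, 3 libraries) and cells given back H373R CTCF under the same auxin (H373R auxin, titled ZF4, 3 libraries) made up the other groups. All groups come from 1 line grown in serum and LIF, and the promoter and vector of the reintroduced CTCF, like the duration of auxin, are not given in the sources used here. An additional EV auxin replicate and an auxin-treated line without the degron were not analysed here. Nothing in the labels says that the libraries of a group came from separate cultures, so p-values measure the spread between these libraries, which may be technical.

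G-quadruplexes are stacked structures that G-rich DNA or RNA can fold into, and they block polymerases and shape promoters and telomeres when they persist. Helicases use ATP to open them: RecQ family enzymes such as BLM and WRN and iron-sulfur enzymes such as BRIP1 and RTEL1 act mostly on DNA during replication and repair, PIF1 acts at stalled forks and telomeres, and DHX36, DHX9 and DDX5 also act on RNA. ATRX is a chromatin remodeller that places histone H3.3 at G-rich repeats and telomeres, and ERCC2 (XPD) is the repair helicase of the transcription factor TFIIH. In embryonic stem cells, which divide fast, such enzymes are broadly expressed.

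Promoter sequences were looked at first because a G-rich stretch or a CTCF-like motif at the start of a helicase gene bears on the study's subject, CTCF as a G-quadruplex binder. RefSeq promoter windows of build GRCm38.p6, from 250 bases before to 50 bases after a start, were matched for 8 of the 10 genes (Wrn and Pif1 were not matched). The G-quadruplex pattern searched was 4 runs of 3 to 5 G separated by loops of 1 to 7 bases, on both strands. It was present for 3 of the 8 genes, against 20.4% of the 27025 genes in the table and 18.6% of its 32851 windows. The matches are printed below 5′ to 3′ on the strand that carries the G runs, with runs of at least 3 G in capitals.
Rtel1, chr2:181319607-181319631, minus strand, opposite to the gene: GGGGGctGGGGGctGGGGGGtGGGG
Brip1, chr11:86201353-86201374, minus strand, the gene's strand: GGGGtGGGGtttGGGGGaGGGG
Ddx5, chr11:106789218-106789244, minus strand, the gene's strand: GGGGaaggaGGGGtggaagaGGGaGGG
Ddx5, a further annotated start, chr11:106788603-106788622, minus strand, the gene's strand: GGGcGGGcGGGcgttgaGGG

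Positions are read in the direction of the gene and counted from the RefSeq start of the window. Read so, the Rtel1 match began at position -117 and the Brip1 match at -181. The first Ddx5 match began at -59, and the match at the further start at -128 from that start. Dhx9 was the 1 gene of the 8 whose window held the CTCF-like letters searched on both strands, which were CC, any 3 bases, AGG, any 1 base and GGC. Read in the direction of the gene, the match began at position -76 from its RefSeq start.
Dhx9, chr1:153487725-153487736, plus strand, opposite to the gene: CCCCGAGGGGGC

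These letters were present in 3.43% of all windows and for 3.96% of genes. A match is a description of the sequence and no evidence of a folded structure or of binding.

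The libraries held 13465241 to 29902246 counts each, of which the 10 helicases took 0.171% to 0.221%. All 11 markers of mouse embryonic stem cells exceeded 1 TPM (length-scaled transcript abundance) in every group, with a summed level of 11436 to 12429 TPM over all libraries. The 6 primitive endoderm markers summed to 18.1 to 19.3 TPM in EV untreated, 21.7 to 22.0 in EV auxin, 61.6 to 66.7 in FL auxin and 39.9 to 44.1 in H373R auxin, with none at 0, and 8 fibroblast feeder markers to 65.5 to 70.8, 65.0 to 71.5, 81.2 to 91.4 and 85.6 to 90.1, with 2 of the 8, Fap among them, at 0 in each group. The 4 neural markers summed to 369 to 438, 415 to 427, 304 to 350 and 353 to 363 TPM in the same order, the 5 mesendoderm markers to 10.8 to 11.9, 15.0 to 15.3, 15.8 to 20.0 and 15.2 to 17.4, and the 4 trophoblast markers to 7.45 to 10.2, 11.2 to 11.9, 8.80 to 13.5 and 9.86 to 13.0. The part of these cells in the differences described here was not tested. EV untreated replicate 1 stood apart: its counts differed from those of the other 2 EV untreated libraries by a chi-square per degree of freedom of 15.6 and 14.9, while every other pair within a group gave 1.94 to 4.77. Its deviation from the group mean went with the GC content of genes (r = 0.58 across 16242 genes, which are not independent), so the calls of the helicases and the counts of the gene lists after auxin are also given without it. Other libraries deviated with GC content as well, FL replicate 1 at r = 0.33 and FL replicate 2 at -0.23. EV untreated replicates 2 and 3 had -0.39 and -0.33, from a mean that includes replicate 1. The remaining libraries had -0.15 to 0.15.

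Levels of the helicases were compared in TPM. Ddx5 and Dhx9, which act on RNA, led: Ddx5 averaged 465 TPM over the 11 libraries (417 to 531), at the 98.1 percentile of tested genes. Dhx9 averaged 209.8 TPM (175 to 260). Next came Blm at 65.3 TPM (57.2 to 74.9) and Dhx36 at 55.5 TPM (47.7 to 61.4). Their ranges overlapped, so the order of these neighbours is not separated by their spread. Rtel1 (31.4 TPM, 30.3 to 32.6), Atrx (30.1 TPM, 22.0 to 41.0), Pif1 (26.1 TPM, 21.9 to 30.5) and Brip1 (24.7 TPM, 20.0 to 30.5) formed a middle group with overlapping ranges. Wrn (16.3 TPM, 13.0 to 21.9) and Ercc2 (12.6 TPM, 10.5 to 14.8) were the lowest, Ercc2 at the 46.1 percentile. Counts per library ran from 171 for Ercc2 at its lowest to 21764 for Ddx5 at its highest.

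In the comparisons as fitted, a helicase that passed the test was lower, never higher, in the first-named group. This covered 1 helicase after auxin, and several in the rescue groups (FL auxin and H373R auxin) against EV auxin and against EV untreated. It did not hold with trends in GC content and exon length removed. There 2 passed as higher in FL auxin against EV auxin (36.3% of all genes called) and 2 against EV untreated (45.8%). In H373R auxin 1 passed as higher in each of these comparisons (31.9% and 50.9%). Calls used edgeR's quasi-likelihood test with an adjusted p under 0.05. After auxin in EV cells 1 of 10 passed (Wrn), where 20.7% of all tested genes passed, 11.3% higher and 9.4% lower. In FL auxin against EV auxin 3 were lower (Brip1, Pif1 and Atrx), against 24.5% of all genes, 11.1% higher and 13.4% lower. In H373R auxin against EV auxin 4 were lower (Brip1, Dhx9, Ddx5 and Atrx), against 21.7% of all genes, 10% higher and 11.7% lower. The median log2 difference of the 10 was -0.11, -0.14 and -0.16 in these comparisons, beside 0.0087, -0.014 and 0.00031 for all tested genes. With trends in GC content and exon length removed, these medians were -0.026, -0.070 and -0.093, beside -0.0076, 0.0060 and 0.0085 for all genes. The last 2 comparisons share the EV auxin libraries. Libraries did not overlap between FL auxin and EV auxin for 6 of the 10, as for 53.9% of all tested genes, and between H373R auxin and EV auxin for 8 of the 10, as for 57% of all.

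Between the rescue groups, H373R auxin against FL auxin, edgeR called 0 of the 10 helicases, where 5.96% of all genes passed, 3.14% higher and 2.82% lower. At an unadjusted p under 0.05 edgeR had 3 of the 10 (Blm, Pif1 and Atrx), where 20.6% of all genes were under that p, and DESeq2 also called 0 after adjustment. Against EV untreated the calls were more frequent among the helicases and among all genes alike. FL auxin had 5 lower (Wrn, Brip1, Pif1, Dhx9 and Atrx), with 36.9% of all genes called, 17.7% higher and 19.2% lower. H373R auxin had 6 lower (Blm, Wrn, Brip1, Dhx9, Ddx5 and Atrx), with 44.4% of all genes called, 22.3% higher and 22.1% lower. The median log2 difference of the 10 was -0.20 and -0.22 there, beside 0.0016 and 0.0048 for all genes, and -0.14 and -0.19 with the GC and length trends removed. Libraries did not overlap with EV untreated for 5 of the 10 in FL auxin (43.4% of all genes) and 5 in H373R auxin (51%). After auxin this held for 1 of the 10 (44.9% of all genes), and between the rescue groups for 2 (28.8%). Shares for patterns over more than 2 groups, described by gene below, are not given here. A joint test of any difference among the 4 groups called 6 (Wrn, Brip1, Pif1, Dhx9, Ddx5 and Atrx), and 50.6% of all genes. In bulk RNA, fewer cells of a type and less RNA per cell cannot be told apart.

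**Figure D1:**
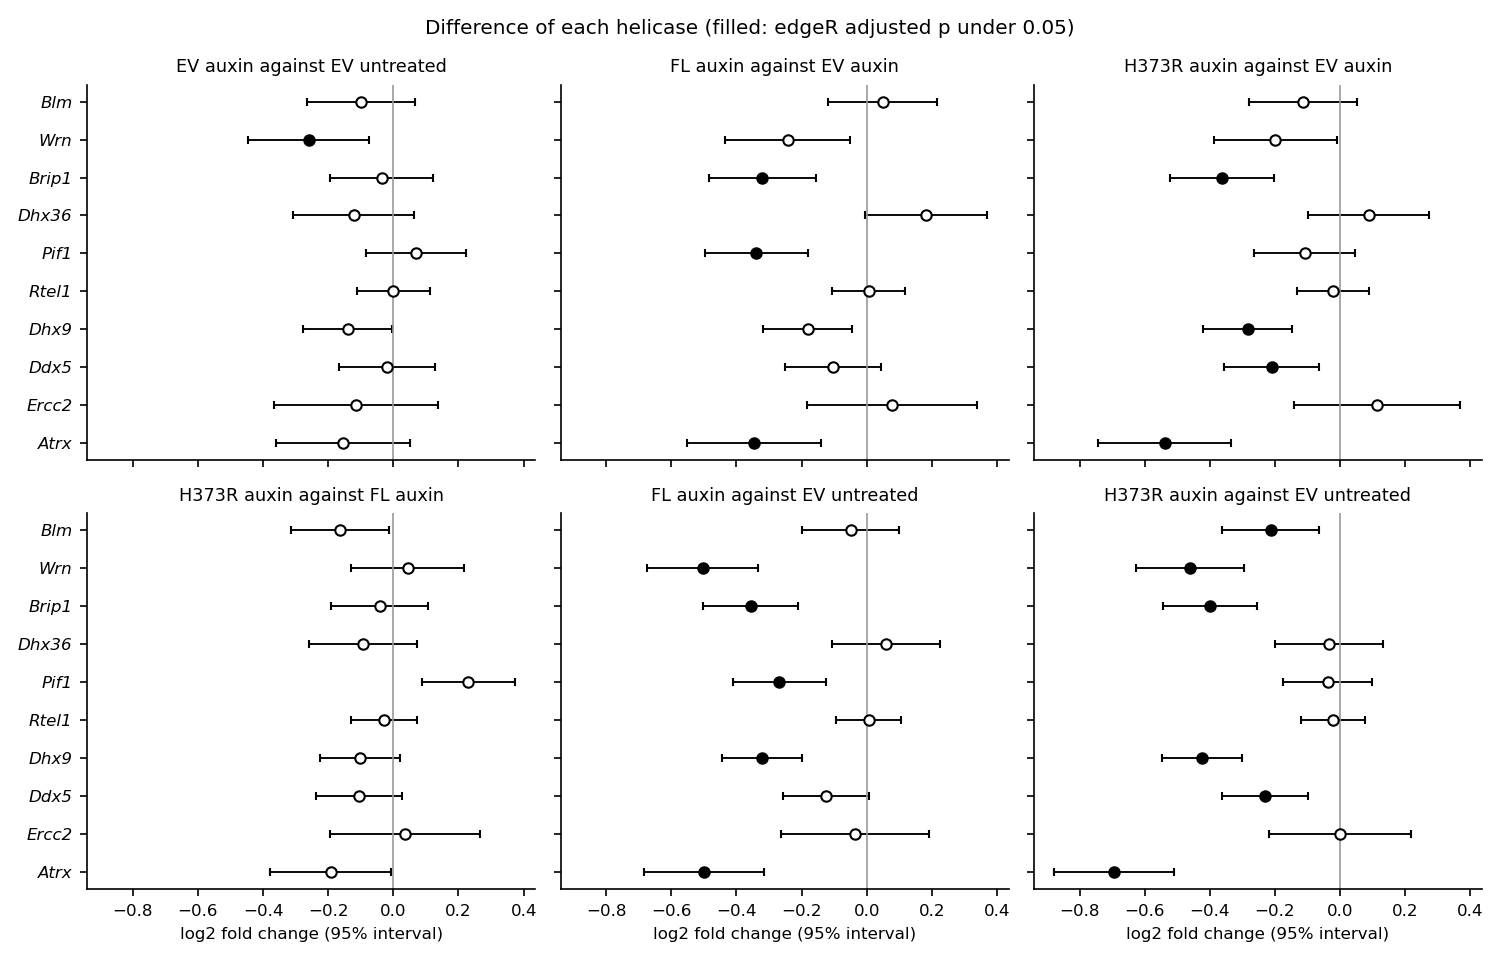
Log2 fold change (x axis) of each of the 10 helicases (y axis) in the 6 comparisons, with the 95% interval from edgeR's model; filled points passed an adjusted p of 0.05. All filled points lie left of 0, with 6 in H373R auxin against EV untreated and 0 in H373R auxin against FL auxin.

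Atrx, on the X chromosome (GRCm38, X, 105797615 to 105929403, minus strand), had the largest fall of the 10 as fitted in H373R auxin against EV auxin, against EV untreated, and in FL auxin against EV auxin; in FL auxin against EV untreated Wrn fell as much, and with GC and length trends removed other helicases moved further. Its TMM-scaled CPM (counts scaled to library size and not divided by length) were 188, 236 and 235 in EV untreated and 197 and 198 in EV auxin. They were 138, 163 and 166 in FL auxin and 147, 132 and 128 in H373R auxin. All 6 rescue libraries thus lay below all 5 EV libraries, while the rescue groups overlapped each other. Atrx fell by 31.2% in H373R auxin against EV auxin (log2 -0.54, SE 0.0961, edgeR adjusted p = 0.00122) and by 38.1% against EV untreated (log2 -0.69, SE 0.0866, edgeR adjusted p = 1.36e-05). In FL auxin it fell by 21.3% against EV auxin (log2 -0.35, SE 0.0967, edgeR adjusted p = 0.017) and by 29.3% against EV untreated (log2 -0.50, SE 0.0869, edgeR adjusted p = 0.000394). The FL call against EV auxin rested on single libraries: the edgeR adjusted p was 0.088 without EV auxin replicate 1, 0.110 without EV auxin replicate 2 and 0.0710 without FL replicate 1. H373R auxin against FL auxin did not pass (log2 -0.19, a change of -12.5%, 95% interval -23.1% to -0.423%, edgeR adjusted p = 0.227), but passed without EV untreated replicate 1 (edgeR adjusted p = 0.0197). Auxin alone gave -0.15 (edgeR adjusted p = 0.292), and -0.27 (edgeR adjusted p = 0.00312) without EV untreated replicate 1. With GC and length trends removed it gave 0.010 (edgeR adjusted p = 0.861).

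Of the RecQ helicases, Wrn (chromosome 8, 33234384 to 33385527, minus strand), the Werner syndrome protein with both helicase and exonuclease activity, was the 1 helicase lower after auxin. It stood at 35.9, 42.2 and 43.7 CPM in EV untreated and at 33.8 and 33.9 in EV auxin. FL auxin had 27.0, 30.0 and 29.1 CPM and H373R auxin 31.5, 29.6 and 27.4. The 3 auxin groups all lay below EV untreated without overlap, and the FL and H373R libraries overlapped. After auxin Wrn fell by 16.5% (log2 -0.26, SE 0.0874, edgeR adjusted p = 0.0466). This call was lost with upper quartile scaling (edgeR adjusted p = 0.0547). It was also lost without EV untreated replicate 2 or 3 (edgeR adjusted p = 0.0978 and 0.159), EV auxin replicate 1 or 2 (0.183 and 0.188), FL replicate 2 or 3 (0.0542 and 0.0615) or H373R replicate 2 (0.0573). Without EV untreated replicate 1 it was stronger (edgeR adjusted p = 0.000255). Against EV untreated Wrn fell by 29.5% in FL auxin (log2 -0.50, edgeR adjusted p = 0.000191) and by 27.3% in H373R auxin (log2 -0.46, edgeR adjusted p = 0.000211), and both calls held when any 1 library was left out. Against EV auxin the values were -0.24 for FL (edgeR adjusted p = 0.0633) and -0.20 for H373R (edgeR adjusted p = 0.124), neither past the threshold; without EV untreated replicate 1 both passed.

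Blm (chromosome 7, 80454733 to 80535119, minus strand), which dissolves crossed DNA strands and is mutated in Bloom syndrome, moved less. Its CPM were 143, 174 and 173 in EV untreated, 154 and 150 in EV auxin, 147, 165 and 161 in FL auxin, and 145, 142 and 134 in H373R auxin. The H373R libraries were the low ones, below all FL and EV auxin libraries but overlapping EV untreated. Blm fell by 13.7% in H373R auxin against EV untreated (log2 -0.21, SE 0.0695, edgeR adjusted p = 0.021). That call was lost without EV untreated replicate 2 or 3 or without H373R replicate 2 or 3, where the edgeR adjusted p was 0.0962, 0.0967, 0.0505 and 0.0756. In FL auxin against EV auxin the difference was 0.05 (95% interval -7.82% to 16.2%).

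Among the iron-sulfur helicases Brip1 was lower in both rescue groups. Brip1 (chromosome 11, 86058138 to 86201193, minus strand), also known as FANCJ, binds BRCA1 and works in the Fanconi anaemia pathway of crosslink repair; its promoter carries the match printed above. It was at 51.3, 61.0 and 57.7 CPM in EV untreated and 56.5 and 53.9 in EV auxin, but at 40.8, 45.9 and 46.0 in FL auxin and 43.3, 42.7 and 42.7 in H373R auxin. Every rescue library was below every EV library. Against EV auxin Brip1 fell by 19.9% in FL auxin (log2 -0.32, SE 0.0767, edgeR adjusted p = 0.007) and by 22.2% in H373R auxin (log2 -0.36, SE 0.0756, edgeR adjusted p = 0.00343). Without EV auxin replicate 1 these edgeR adjusted p were 0.0730 and 0.0519. Against EV untreated it fell by 21.9% in FL auxin (edgeR adjusted p = 0.000862) and fell by 24.2% in H373R auxin (edgeR adjusted p = 0.000206), and both calls held when any 1 library was left out. Auxin alone gave -0.04 (95% interval -12.7% to 8.91%), and the rescue groups differed by -0.04 (95% interval -12.4% to 7.61%).

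Rtel1 (chromosome 2, 181319739 to 181356616, plus strand), which unwinds telomere loops, was the steadiest of the set. Its CPM were 55.7, 55.6 and 56.1 in EV untreated, 56.0 and 55.6 in EV auxin, 55.1, 56.8 and 56.2 in FL auxin and 55.4, 55.8 and 53.7 in H373R auxin. All groups overlapped. The change after auxin was -0.011% with a 95% interval of -7.44% to 8.02%, and the joint edgeR adjusted p was 0.948. Rtel1 also carries a G-quadruplex match in its promoter, as do Brip1 and Ddx5, both of which had calls. Blm, Dhx9 and Atrx, whose windows held no such match, had calls as well. Whether a match goes with a call was not tested.

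Ercc2 (chromosome 7, 19382010 to 19395694, plus strand), the lowest expressed of the set, passed no test in this fit. It gave 16.5, 12.8 and 13.8 CPM in EV untreated, 11.6 and 14.9 in EV auxin, 14.3, 13.0 and 14.7 in FL auxin, and 13.9, 15.0 and 14.4 in H373R auxin. The groups overlapped throughout (joint edgeR adjusted p = 0.804), and the 95% interval of H373R auxin against EV untreated ran from -14.1% to 16.3%. Its exons overlap those of genes on the opposite strand, Klc3 among them, over 1769 bases. Since the strand setting of the counting is not given in the sources used here, and Klc3 had 215 to 599 counts, reads of the overlap could be assigned to either gene.

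Pif1 (chromosome 9, 65587160 to 65595967, plus strand), a helicase that clears G-quadruplexes ahead of replication forks and limits telomerase, was called lower in FL auxin and not in H373R auxin in this fit, a difference that did not pass when tested directly. It stood at 34.3, 30.0 and 31.7 CPM in EV untreated and 32.8 and 34.5 in EV auxin. In FL auxin it was at 26.7, 27.3 and 26.0 CPM, and in H373R auxin at 31.2, 29.7 and 32.7. The FL libraries were below all other 8 libraries, while H373R auxin overlapped EV untreated and lay just below EV auxin. In FL auxin Pif1 fell by 20.9% against EV auxin (log2 -0.34, SE 0.0746, edgeR adjusted p = 0.00416) and by 17.0% against EV untreated (log2 -0.27, edgeR adjusted p = 0.00536). Without EV auxin replicate 2 the former had an edgeR adjusted p of 0.0774. The direct comparison of H373R auxin with FL auxin gave 0.23 (17.3%, 95% interval 6.23% to 29.5%) and did not pass (edgeR adjusted p = 0.0576); it passed with upper quartile scaling (edgeR adjusted p = 0.0459) and when EV untreated replicate 1 was left out (edgeR adjusted p = 0.0112). H373R auxin against EV auxin gave -0.11 (95% interval -16.7% to 3.25%).

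The RNA helicase Dhx9 (chromosome 1, 153455758 to 153487660, minus strand), which resolves RNA-DNA hybrids and whose promoter holds the CTCF-like letters shown above, was lower in both rescue groups than in EV untreated. Its CPM were 565, 669.7 and 647 in EV untreated, 569.8 and 568 in EV auxin, 483, 506 and 516 in FL auxin, and 469, 485 and 449 in H373R auxin. All rescue libraries were below all EV libraries, and FL and H373R overlapped. Dhx9 fell by 25.5% in H373R auxin (log2 -0.42, SE 0.0576, edgeR adjusted p = 3e-05) and by 0.32 on the log2 scale in FL auxin (SE 0.0577, edgeR adjusted p = 0.000508) against EV untreated. Against EV auxin it fell by 17.8% in H373R auxin (log2 -0.28, SE 0.0641, edgeR adjusted p = 0.0057), with an edgeR adjusted p of 0.0522 without EV auxin replicate 1. FL auxin against EV auxin gave -0.18 (edgeR adjusted p = 0.052), which passed without EV untreated replicate 1 (edgeR adjusted p = 0.00562) or replicate 2 (0.0476), with no filter (0.0150), with at least 10 counts per library (0.0438), with only the libraries compared (0.0167), with the replicate block (0.0411) and in limma on log2(TPM + 1) (adjusted p = 0.0277). With GC and length trends removed it was -0.088 and did not pass (edgeR adjusted p = 0.0612). It ran from -0.20 to -0.15 when single libraries were left out. Auxin alone gave -0.14 (edgeR adjusted p = 0.143), and -0.22 (edgeR adjusted p = 0.00113) without EV untreated replicate 1. With GC and length trends removed it gave -0.060 (edgeR adjusted p = 0.221).

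Ddx5 (chromosome 11, 106780355 to 106789185, minus strand), the most abundant of the set and a cofactor of transcription and splicing, was lower in H373R auxin. It was at 686, 823 and 799 CPM in EV untreated, 787 and 730.3 in EV auxin, 676, 739 and 702 in FL auxin, and 645, 676 and 646 in H373R auxin. The H373R libraries lay below both EV groups and touched the FL range. Ddx5 fell by 14.8% against EV untreated (log2 -0.23, SE 0.0620, edgeR adjusted p = 0.00693) and by 13.6% against EV auxin (log2 -0.21, SE 0.0691, edgeR adjusted p = 0.0406). The call against EV auxin was lost without EV auxin replicate 1 (edgeR adjusted p = 0.298), EV auxin replicate 2 (0.0755), FL replicate 3 (0.0572) or H373R replicate 1, 2 or 3 (0.111, 0.0719 and 0.121). FL auxin gave -0.12 against EV untreated (edgeR adjusted p = 0.131).

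Dhx36 (chromosome 3, 62468013 to 62507004, minus strand), which binds and unfolds G-quadruplexes in DNA and RNA with high affinity, passed no test in this fit. It stood at 130.1, 165 and 165 CPM in EV untreated, 145 and 137 in EV auxin, 149, 171 and 160 in FL auxin, and 148, 154 and 147 in H373R auxin. Both rescue groups lay above EV auxin without overlap and inside the range of EV untreated or just past it. FL auxin against EV auxin gave 0.18 (13.4%, 95% interval -0.372% to 29.1%, edgeR adjusted p = 0.148), and H373R auxin against EV auxin 0.088 (95% interval -6.58% to 20.9%). Without EV untreated replicate 1 it was called higher in FL auxin against EV auxin (edgeR adjusted p = 0.00473) and lower after auxin (edgeR adjusted p = 0.00142). With GC and length trends removed the difference after auxin was -0.015 (edgeR adjusted p = 0.814).

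**Figure D2:**
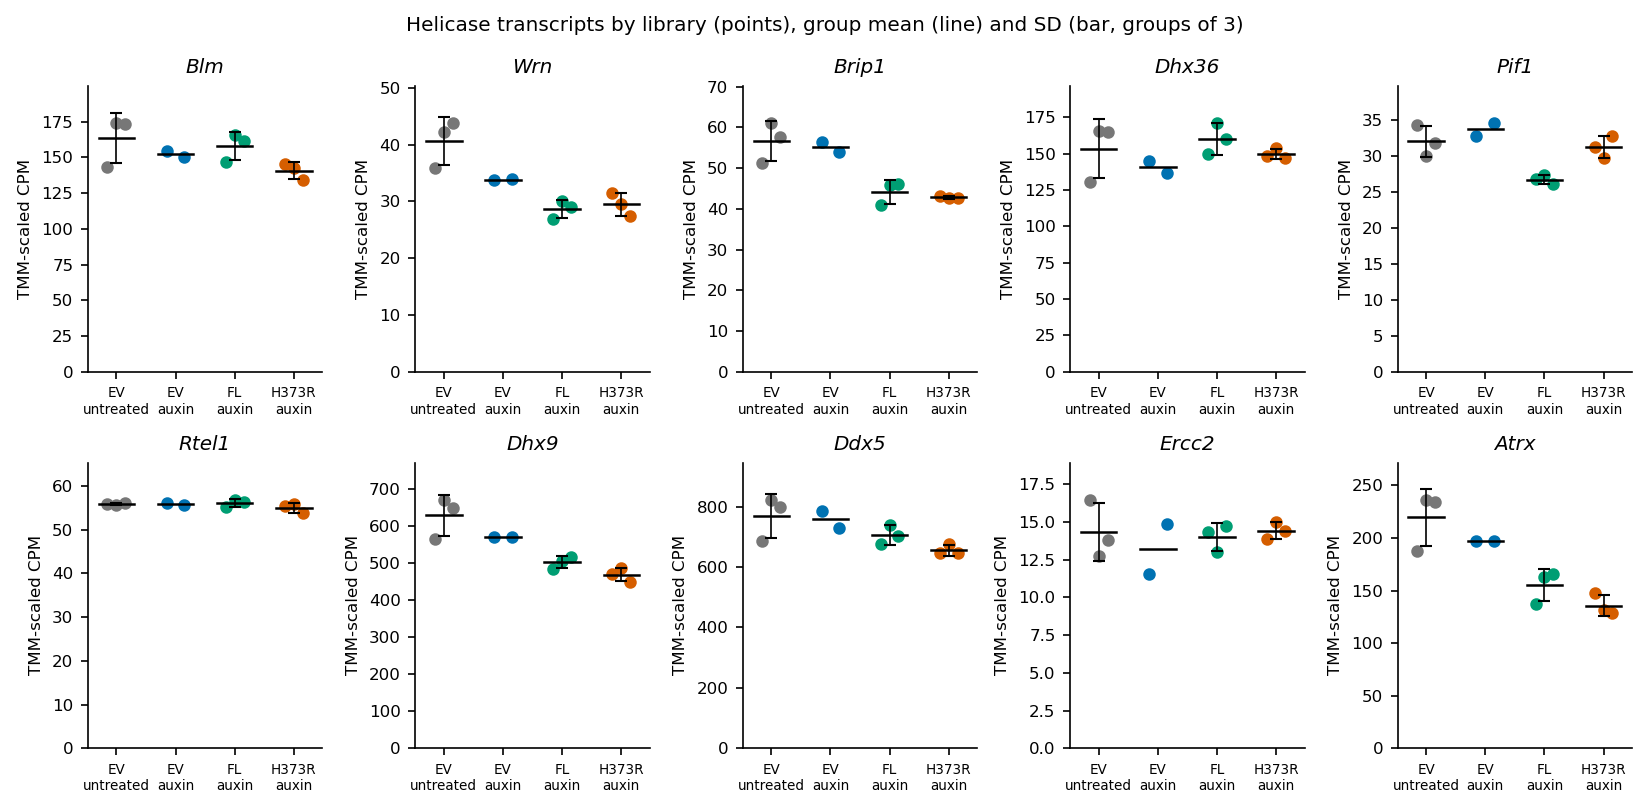
TMM-scaled CPM (y axis, from 0) of each helicase in each library (points) by group (x axis), with the group mean as a line and the SD as a bar for groups of 3. The 6 rescue libraries of Atrx, Brip1 and Dhx9 lie below their 5 EV libraries, Pif1 is low in FL auxin, and Rtel1 stays between 53.7 and 56.8. Taken pairwise, a rescue group did not overlap an EV group for 43.4% to 57% of all tested genes. The share of all genes with a pattern over more than 2 groups is not given here.

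Without EV untreated replicate 1 the number of helicases called was 5, 6, 5, 3, 7 and 7 of 10 for EV auxin against EV untreated, for FL and then H373R auxin against EV auxin, for H373R auxin against FL auxin, and for FL and then H373R auxin against EV untreated. The share of all tested genes called was larger as well, at 33.3%, 35.5%, 33%, 14.2%, 47.2% and 54.7%. The additional calls after auxin were Blm (log2 -0.20), Dhx36 (-0.24), Dhx9 (-0.22) and Atrx (-0.27), all lower. With all libraries kept and trends in GC content and exon length removed, these differences were -0.033, -0.015, -0.060 and 0.010. None of them passed (edgeR adjusted p = 0.545, 0.814, 0.221 and 0.861). In FL auxin against EV auxin Wrn (-0.23) and Dhx9 (-0.17) were added as lower and Dhx36 (0.19) as higher, and in H373R auxin against EV auxin Wrn (-0.20) as lower. Between the rescue groups Blm (-0.17) and Atrx (-0.20) were lower and Pif1 (0.22) higher in H373R auxin. Against EV untreated Blm (-0.14) and Ddx5 (-0.20) were added as lower in FL auxin and Dhx36 (-0.15) in H373R auxin.

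The differences went with base composition and, mostly less strongly, with exon length. For log2 exon length r ran from -0.031 (EV auxin against EV untreated) to -0.15 (H373R auxin against EV auxin). In FL auxin against EV auxin length and GC content were close in strength, at -0.082 and 0.086. Across 16242 genes the log2 fold change rose with the GC content of the exons in all 6 comparisons, with r from 0.086 (FL auxin against EV auxin) to 0.29 (H373R auxin against EV untreated), across genes that are not independent. In the latter the lowest quartile of genes (under 46.0% GC) had a median log2 difference of -0.14 and the highest (over 55.0% GC) one of 0.20. Of the helicases 7 were in the lowest quartile: Dhx36 (38.1%), Atrx (40.3%), Brip1 (42.0%), Dhx9 (42.2%), Wrn (42.8%), Blm (43.7%) and Ddx5 (44.8%). Pif1 (55.3%) and Ercc2 (58.7%) were in the highest, and Rtel1 (52.2%) in between.

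With trends in GC content and exon length removed, the falls called in low-GC helicases shrank and stayed past the threshold, except that of Blm. The trends were removed together, so the part of each in these shifts was not tested. Atrx went from -0.54 to -0.22 in H373R auxin against EV auxin (edgeR adjusted p = 0.000116), from -0.35 to -0.13 in FL auxin against EV auxin (edgeR adjusted p = 0.00838), from -0.69 to -0.21 in H373R auxin against EV untreated and from -0.50 to -0.12 in FL auxin against EV untreated. Brip1 moved from -0.36 to -0.22 and Dhx9 from -0.28 to -0.12 in H373R auxin against EV auxin. Wrn moved from -0.50 to -0.37 in FL auxin against EV untreated. Ddx5 moved from -0.21 to -0.12 in H373R auxin against EV auxin (edgeR adjusted p = 0.0219).

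Other helicases gained or lost a call with the trends removed. Dhx36, the lowest in GC, became higher in both rescue groups, by 0.30 in FL auxin (edgeR adjusted p = 8.47e-06) and 0.30 in H373R auxin (edgeR adjusted p = 1.04e-05) against EV auxin, and its difference in H373R auxin against EV untreated turned from -0.034 to 0.29. Blm lost its call in H373R auxin against EV untreated (from -0.21 to -0.0036), turned from -0.05 to 0.10 in FL auxin against EV untreated, where it was called higher (edgeR adjusted p = 0.0214), and was called higher in FL auxin against EV auxin (0.13, edgeR adjusted p = 0.0103). Wrn was called lower in FL auxin against EV auxin (-0.17, edgeR adjusted p = 0.0236). Pif1 was called lower in H373R auxin too, by -0.19 against EV auxin (edgeR adjusted p = 0.0112) and -0.21 against EV untreated, and was higher in H373R auxin than in FL auxin by 0.17 (edgeR adjusted p = 0.0331). Ercc2 was lower against EV untreated in EV auxin, FL auxin and H373R auxin (-0.23, -0.21 and -0.26), and Rtel1 was not called. The calls were then 2 lower of 10 after auxin (31.7% of all genes), 2 higher and 4 lower in FL auxin against EV auxin (36.3%), and 1 higher and 5 lower in H373R auxin against EV auxin (31.9%). They were 1 higher in H373R auxin against FL auxin (14%), 2 higher and 6 lower in FL auxin against EV untreated (45.8%), and 1 higher and 7 lower in H373R auxin against EV untreated (50.9%).

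**Figure D3:**
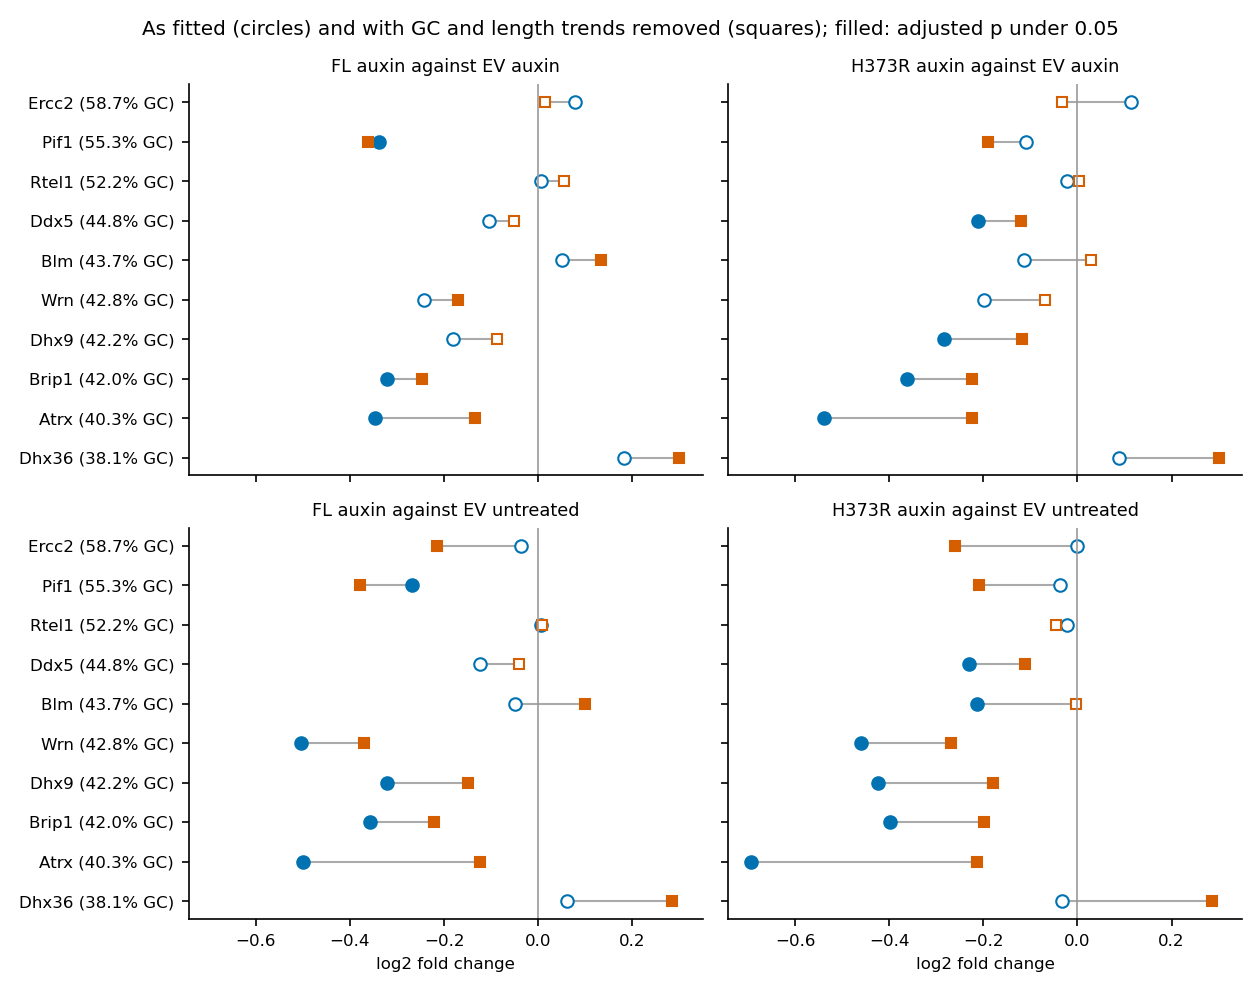
Log2 fold change (x axis) of each helicase, ordered by exon GC content (y axis), as fitted (circles) and with trends in GC content and length removed (squares) in 4 comparisons; filled symbols passed an edgeR adjusted p of 0.05. Low-GC helicases shift to the right and Pif1 and Ercc2 mostly to the left, and Dhx36 ends at 0.30 in both comparisons with EV auxin.

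Some of the helicases that fell varied together over the 11 libraries, whose values also share group differences and a trend with base composition. On the log2 CPM scale the correlation was 0.97 between Dhx9 and Atrx, 0.97 between Brip1 and Atrx, 0.95 between Brip1 and Dhx9 and 0.93 between Wrn and Dhx9. Pif1, which also fell, stood apart from these, at 0.27 with Dhx9, 0.32 with Atrx, 0.43 with Wrn and 0.45 with Brip1. At the other end it was -0.67 between Dhx36 and Pif1 and -0.61 between Ddx5 and Ercc2. Among all tested genes, those most like Atrx were Pbrm1 (r = 0.995), Atp13a3 (0.995) and Nipbl (0.991), over the same 11 libraries. Pbrm1, a chromatin remodelling subunit, averaged 200.1 CPM in EV untreated, 176 in EV auxin, 145 in FL auxin and 131 in H373R auxin. Those most like Dhx9 were Rbm41 (r = 0.990), Mbtd1 (0.988) and Cdyl (0.988). These are descriptions across groups that differ, with no test.

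Other helicases linked to G-quadruplexes did not move as one. Of 14, 2 were higher and 2 lower after auxin, 1 was lower in each rescue group against EV auxin, and edgeR called 0 between the rescue groups. Of all tested genes 20.7% were called after auxin and 5.96% between the rescue groups. Against EV auxin these shares were 24.5% in FL auxin and 21.7% in H373R auxin. After auxin the counts of the 14 were 3 higher and 2 lower without EV untreated replicate 1 (33.3% of all genes called), and 4 higher and 3 lower with the trends removed (31.7%). Their median log2 difference was -0.0013 after auxin, -0.031 in FL auxin and -0.068 in H373R auxin against EV auxin. Dna2, a nuclease-helicase of replication and end resection, rose by 39.5% after auxin (log2 0.48, edgeR adjusted p = 5.7e-06) and Ddx11 by 16.0% (log2 0.21, edgeR adjusted p = 0.0182). Recql fell by 14.1% (log2 -0.22, edgeR adjusted p = 0.0212). Ddx21, a nucleolar RNA helicase, was the gene called in the rescue groups, at -0.21 in FL auxin (edgeR adjusted p = 0.00831) and -0.32 in H373R auxin (edgeR adjusted p = 0.000654).

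Of 24 G-quadruplex binding proteins that are not helicases, 1 was higher and 2 lower after auxin (20.7% of all genes called). Against EV auxin 2 were higher and 6 lower in FL auxin (24.5%), and 6 lower in H373R auxin (21.7%). Their median was -0.039, -0.055 and -0.089. Without EV untreated replicate 1 the counts were 0 higher and 8 lower by edgeR, 7 higher and 6 lower, and 2 higher and 9 lower (33.3%, 35.5% and 33% of all genes). With the GC and length trends removed they were 5 higher and 6 lower, 6 higher and 5 lower, and 3 higher and 5 lower (31.7%, 36.3% and 31.9% of all genes). Rev1, a translesion polymerase that helps copy G-quadruplex DNA, fell after auxin (log2 -0.32, edgeR adjusted p = 0.00066), as did the single-strand binding subunit Rpa1 (log2 -0.20, edgeR adjusted p = 0.011), while the paraspeckle protein Nono rose (log2 0.15, edgeR adjusted p = 0.0395), a call lost without EV untreated replicate 1 (edgeR adjusted p = 0.102). The 1 gene of this list called in H373R auxin against FL auxin was Sfpq, the partner of Nono (log2 -0.18, edgeR adjusted p = 0.022).

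The partners of individual helicases were mixed. Of all tested genes 20.7% were called after auxin, 33.3% without EV untreated replicate 1 and 31.7% with the trends removed. Against EV auxin 24.5% of all genes were called in FL auxin and 21.7% in H373R auxin. Among 11 BLM and RecQ partners 2 were lower after auxin, Rpa1 and Rpa3 (log2 -0.27, edgeR adjusted p = 0.00669). After auxin 5 were lower without EV untreated replicate 1, and 3 with the trends removed, Rpa3 not among them (log2 -0.17, edgeR adjusted p = 0.128). In FL auxin against EV auxin 2 were higher and 1 lower, and in H373R auxin 1 was lower. Among 15 BRIP1 and Fanconi anaemia partners 3 were lower after auxin: Fanci (log2 -0.28, edgeR adjusted p = 0.0047), Fancd2 (log2 -0.22, edgeR adjusted p = 0.0241) and Bard1 (log2 -0.19, edgeR adjusted p = 0.0355). Without EV untreated replicate 1 the counts after auxin were 1 higher and 5 lower, and with the trends removed 5 were lower. Bard1, the partner of BRCA1, was also lower in FL auxin (log2 -0.32) and H373R auxin (log2 -0.30) against EV auxin, where 2 and 4 of the 15 were lower and 2 and 1 higher.

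Of the 10 subunits of TFIIH, Ercc2 included, 1 was higher after auxin (Gtf2h1, log2 0.19, edgeR adjusted p = 0.0304), 1 was higher in FL auxin against EV auxin (Gtf2h3, log2 0.19, edgeR adjusted p = 0.0386), and edgeR called 0 in H373R auxin against EV auxin. All tested genes had 20.7% called after auxin, 24.5% in FL auxin and 21.7% in H373R auxin against EV auxin. That share after auxin was 33.3% without EV untreated replicate 1 and 31.7% with the trends removed. After auxin the TFIIH list had 2 higher and 4 lower with the trends removed, and 1 lower without EV untreated replicate 1, where Gtf2h1 was not called (edgeR adjusted p = 0.0620). Of 6 genes of the ATRX, DAXX and histone H3.3 group, Atrx included, 3 were lower after auxin: the histone chaperones Asf1a (log2 -0.50, edgeR adjusted p = 0.000174), Daxx (log2 -0.23, edgeR adjusted p = 0.00969) and Hira (log2 -0.19, edgeR adjusted p = 0.0479). All 6 of the group were lower after auxin without EV untreated replicate 1, and 5 of the 6 with the trends removed. The exception with the trends removed was Atrx (log2 0.010, edgeR adjusted p = 0.861). Asf1a was higher again in FL auxin against EV auxin (log2 0.24, edgeR adjusted p = 0.0279), where Atrx was lower. Of 14 telomere proteins 3 were lower after auxin: Ctc1 (log2 -0.34, edgeR adjusted p = 0.000135), Pot1b (log2 -0.34, edgeR adjusted p = 0.0214) and Tert (log2 -0.25, edgeR adjusted p = 0.0497). The telomere list had 2 higher and 5 lower after auxin without EV untreated replicate 1, and with the trends removed 1 higher and 4 lower. In H373R auxin against FL auxin Ctc1 was higher (log2 0.16, edgeR adjusted p = 0.0391) and Pot1b lower (log2 -0.34, edgeR adjusted p = 0.0485).

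Genes of S phase, when many of these helicases act, were higher where called as fitted in the rescue groups against EV auxin. Of 21, 1 was higher and 7 lower after auxin, with a median of -0.083, beside 11.3% higher and 9.4% lower among all tested genes. In FL auxin against EV auxin 9 were higher and 0 lower by edgeR (median 0.14), and in H373R auxin 6 were higher and 0 lower (median 0.057). All tested genes had 11.1% higher and 13.4% lower in FL auxin, and 10% higher and 11.7% lower in H373R auxin. With the GC and length trends removed the counts of the 21 were 2 higher and 11 lower, 15 higher and 0 lower, and 11 higher and 1 lower (31.7%, 36.3% and 31.9% of all genes called). They were 1 higher and 8 lower, 14 higher and 0 lower, and 8 higher and 1 lower without EV untreated replicate 1 (33.3%, 35.5% and 33% of all genes). Rrm2, a subunit of the enzyme that makes deoxynucleotides, fell after auxin (log2 -0.35, edgeR adjusted p = 0.000355) and was higher in FL auxin (log2 0.29, edgeR adjusted p = 0.00153) and in H373R auxin (log2 0.21, edgeR adjusted p = 0.0124) than in EV auxin. The polymerase subunit Pola1 fell after auxin (log2 -0.45, edgeR adjusted p = 0.000435), and the cyclin Ccne1 rose (log2 0.34, edgeR adjusted p = 9.45e-05).

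**Figure D4:**
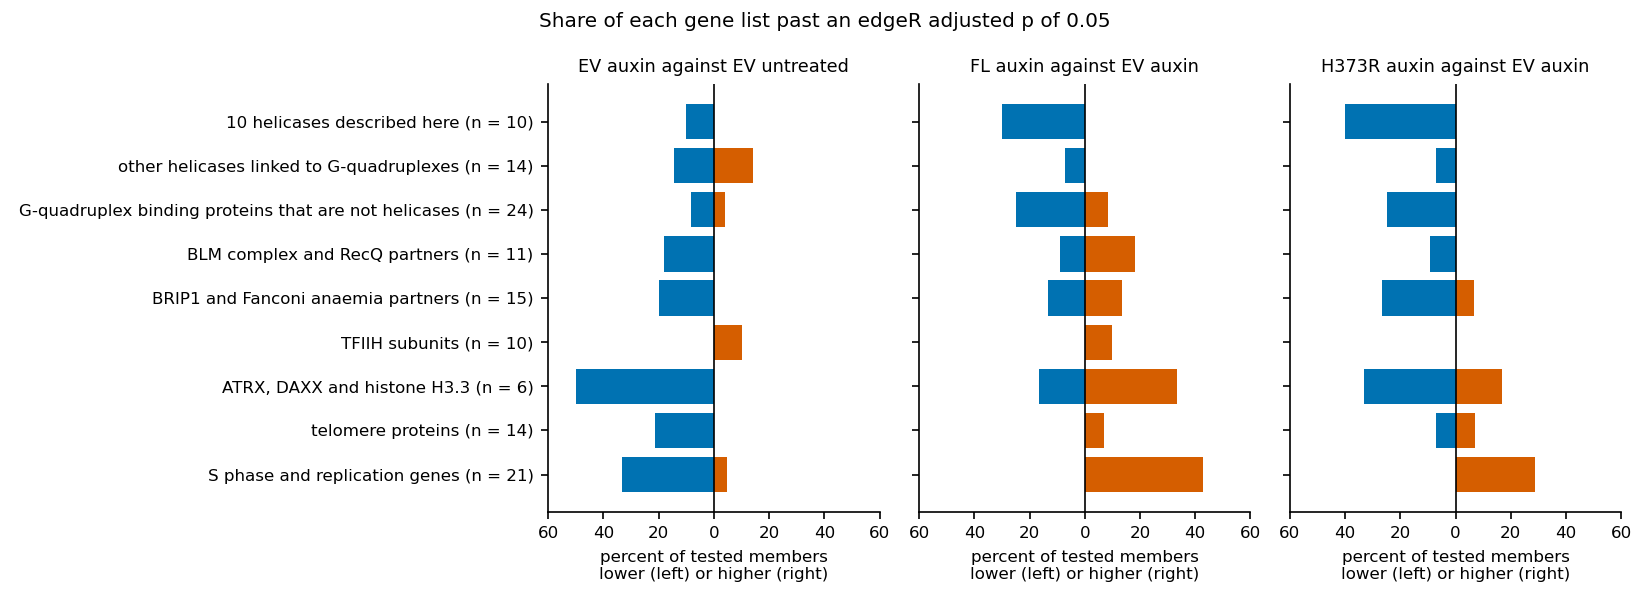
Percent of the tested members of each gene list (y axis, number in brackets) called lower (left of 0) or higher (right of 0) at an edgeR adjusted p under 0.05, in 3 comparisons. The 10 helicases have bars to the left in all 3, and the S phase list has its bars to the right in both comparisons with EV auxin, at 9 and 6 of 21 genes. Of all tested genes 20.7% were called after auxin. Against EV auxin 24.5% were called in FL auxin and 21.7% in H373R auxin.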

How the data were processed

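The deposited table of raw counts per gene symbol was tested, and the deposited TPM table (length-scaled abundance from the same reads) was used for levels and for limma alternatives. The submitters' processing notes name featureCounts, Subread 2.0.3 and DESeq2 and the builds mm10 and GRCm38, without roles. The aligner, annotation and strand setting are not given in the sources used here. Per the labels, libraries were made with a directional kit. Of the symbols, 53569 were found in GENCODE M21, used for coordinates, GC content and length, and 98.9% of the TPM lengths were within 1% of its exon lengths.

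Counts were fitted in edgeR 4.0.16 (R 4.3.3; TMM scaling, filterByExpr, group means over all 11 libraries, quasi-likelihood F test, Benjamini-Hochberg over 16420 genes, threshold 0.05). Standard errors and 95% intervals come from that model. CPM are TMM-scaled, and correlations were taken on log2 CPM (prior count 2). Alternatives used other scalings and filters, DESeq2 1.42.0, limma 3.58.1 on log2(TPM + 1) or with 0.1, a replicate block, fits of only the libraries compared, GC and length trends removed (lowess span 0.3), an adjusted p under 0.01 and leaving out each library. List counts with the trends removed or without EV untreated replicate 1 were added after the data were seen. The scripts were tested on simulated data.

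Named are all 10 helicases in every comparison, up to 3 genes of each list with the smallest p after auxin and up to 2 in H373R auxin against FL auxin, and the 3 genes most like each of the 2 helicases with the smallest joint p. The helicases and lists were chosen with earlier results of these data known. Lists overlap: Ercc3 and Rpa1 are in 2 each.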

Additional observations from a re-analysis of the deposited data

How the results depend on the processing

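The number of helicases called in EV auxin against EV untreated was 1 as fitted, 0 with upper quartile scaling, with only the libraries compared, with the replicate block, at an adjusted p under 0.01 and in the 3 limma fits of TPM, 2 with GC and length trends removed, and 0 to 5 when single libraries were left out (5 without EV untreated replicate 1). In FL auxin against EV auxin it was 3, and became 5 with no filter, 6 with only the libraries compared, 5 with limma on log2(TPM + 1) and with a pseudocount of 0.1, 6 with the trends removed, 6 with these and the block, 4 with the block alone (which added Dhx9, adjusted p = 0.0411) and with at least 10 counts per library, 2 at an adjusted p under 0.01 and in limma with no TPM filter (Atrx lost in both), and 1 to 6 when leaving out libraries (1 without EV auxin replicate 1 or 2). In H373R auxin against EV auxin it was 4, 6 with only the libraries compared and with the trends removed, with or without the block, 3 at an adjusted p under 0.01 and in limma with no TPM filter (Ddx5 lost in both), and 1 to 5 when leaving out libraries (1 without EV auxin replicate 1). In H373R auxin against FL auxin it was 0, and became 1 with upper quartile scaling, a minimum of 10 counts per library, no filter, limma on log2(TPM + 1), the trends removed, and these with the block, 2 with only the libraries compared, and 0 to 3 when leaving out libraries (3 without EV untreated replicate 1). Against EV untreated FL auxin had 5, 8 with the trends removed with or without the block, and 5 to 7 when leaving out libraries. H373R auxin against EV untreated had 6, and 5 to 7 when leaving out libraries. With the trends removed it had 1 higher and 7 lower, with or without the block. It had 5 at an adjusted p under 0.01 and in limma with no TPM filter. The joint test had 6 and 5 to 8. The cause of these differences was not tested.

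Of 1500 values of single helicases under an alternative, 1402 kept both sign and call status, or changed sign while uncalled in both fits. With the sign kept, 55 gained a call and 39 lost one. Another 4 turned over with a call on one side: Blm in FL auxin against EV untreated (0.0993 with the trends removed, 0.0995 with the block too) and Dhx36 in H373R auxin against EV untreated (0.285 in both). The sign changed in 77 values, these 4 among them, where the log2 difference as fitted was at most 0.154 in size. The replicate block gave 0, 4, 4, 0, 5 and 6 calls in the 6 comparisons in the order used above and 6 jointly. Same-numbered libraries deviated together with r of -0.087 to 0.282, over 0.1 for 3 of 15 pairs. Pairs with unlike numbers had r of -0.197 to 0.134, over 0.1 for 1 of 30. Of 11 libraries 7 correlated best with their own number. Whether the numbers pair the libraries cannot be told from these values, and the fit without the block takes no account of it. EV auxin had 2 libraries, and leaving 1 out assumes that the other varies like the remaining groups.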
